A study of Mus musculus with 6 samples.

Results

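Genes that mark naive and quiescent T cells were followed in mouse T helper 9 (Th9) cells, CD4 T cells that make the cytokine IL-9. The set holds 7 of the 17369 genes in the table and was taken by name: Klf2, S1pr1, Tcf7, Lef1, Satb1, Foxo1 and Dapl1. The groups were Cblb-/- cultures (3 libraries) and wild-type (WT) cultures (3 libraries). Cblb encodes CBL-B, a ubiquitin ligase that restrains T cell activation. Both genotypes started from naive CD4 T cells of the spleen and received the same polarization of 48 h in human TGFβ at 3 ng/ml and IL-4 at 20 ng/ml. IFNγ was neutralized with antibody at 20 µg/ml, and cells were enriched on CD4 beads before droplet sequencing of transcript 3' ends. The age of the mice and the deleted part of Cblb are not given in the labels. Nothing in the labels says whether each library came from 1 mouse, so p-values measure only the spread between these libraries, which may be technical.

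A naive T cell is kept small, non-dividing and recirculating by a set of transcription factors that are switched down after activation. FOXO1 is held out of the nucleus by PI3K and AKT signalling and, when nuclear, drives Klf2, Ccr7 and Il7r. KLF2 in turn drives S1pr1, the receptor that lets T cells leave lymphoid organs. TCF1 (from Tcf7) and LEF1 are related DNA-binding factors of naive and memory-like T cells, and SATB1 organizes chromatin in thymocytes and T cells. Dapl1 encodes a small protein related to death-associated protein and is abundant in naive T cells, with a less settled role.

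Promoter sequences are shown because the members moved apart in these data, for the 3 windows that held FOXO or MEF2 letters. RefSeq promoter windows (GRCm38.p6, 250 bases before to 50 after an annotated start) matched 6 of the 7 members. Each was searched on both strands for a FOXO motif (GTAAACA), a TCF and LEF motif (CTTTGA), a KLF motif (CACCC) and a MEF2 motif (CTA and TAG with any 4 bases between them), and capitals mark the matches. The Klf2 window (chr8:72318812-72319111, plus strand) held 1 MEF2 match and 1 KLF match. The Dapl1 window (chr2:59484403-59484702, plus strand) held 1 FOXO match. The downstream Tcf7 window (chr11:52282546-52282845, minus strand) held 1 FOXO match and 2 KLF matches.
Klf2: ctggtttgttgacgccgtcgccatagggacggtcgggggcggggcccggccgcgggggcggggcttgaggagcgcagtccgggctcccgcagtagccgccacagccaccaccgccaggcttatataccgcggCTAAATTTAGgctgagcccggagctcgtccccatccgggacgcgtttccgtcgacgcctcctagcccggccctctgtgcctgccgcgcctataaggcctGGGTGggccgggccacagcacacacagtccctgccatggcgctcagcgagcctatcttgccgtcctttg
Dapl1: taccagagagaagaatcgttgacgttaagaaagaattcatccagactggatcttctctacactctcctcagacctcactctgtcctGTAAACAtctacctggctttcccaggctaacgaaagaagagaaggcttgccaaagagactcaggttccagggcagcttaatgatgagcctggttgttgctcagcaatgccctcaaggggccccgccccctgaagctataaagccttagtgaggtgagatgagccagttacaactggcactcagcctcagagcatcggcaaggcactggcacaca
Tcf7: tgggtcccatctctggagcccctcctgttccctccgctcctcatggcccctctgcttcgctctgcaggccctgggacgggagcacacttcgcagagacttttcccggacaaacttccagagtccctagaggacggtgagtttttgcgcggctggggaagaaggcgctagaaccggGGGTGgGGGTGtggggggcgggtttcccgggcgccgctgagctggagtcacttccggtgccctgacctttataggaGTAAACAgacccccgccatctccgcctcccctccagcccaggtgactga

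Among all 32851 RefSeq windows of this length, 3.65% held the FOXO letters, 16% the TCF and LEF letters, 57.5% the KLF letters and 3.69% the MEF2 letters. Of the 14 member windows, 2 held the FOXO letters, 1 (the Lef1 window that starts farthest downstream) the TCF and LEF letters, 11 the KLF letters and 1 the MEF2 letters. Most of these windows belong to Lef1 and Satb1, and some windows of each overlap, so the same letters can count more than once. A match is a description of these letters and no evidence of binding. In mm10 (GENCODE M21), Klf2 lies on chromosome 8 (72319033 to 72321656), S1pr1 on chromosome 3 (115710433 to 115715072), Tcf7 on chromosome 11 (52252371 to 52283014), Lef1 on chromosome 3 (131110471 to 131224356), Satb1 on chromosome 17 (51736187 to 51833290), Foxo1 on chromosome 3 (52268336 to 52353221) and Dapl1 on chromosome 2 (59484653 to 59505020).

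The 6 libraries, called D, E and F (Cblb-/-) and A, B and C (WT), held 3423 to 5666 cells each, 27258 in all. Median raw depth per cell was 35573 to 39628 UMIs (unique molecular identifiers, 1 for each captured transcript), and 152 cells carried a barcode sequence also found in another cell. Cblb itself was 18.4, 15.02 and 18.0 ppm in D, E and F, against 32.6, 31.1 and 30.9 ppm in A, B and C. Here ppm is parts per 1000000 of a library's summed, depth-corrected counts. T cell markers summed to 2717 to 2879 ppm in Cblb-/- libraries and 2835 to 2904 ppm in WT libraries. Library E lay between D or F and the WT libraries for Klf2 and Satb1.

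The first comparison asked how the members differed between genotypes over all cells. Klf2 and Tcf7 fell in Cblb-/- libraries, whereas Satb1 and Dapl1 rose. Lef1 and Foxo1 did not pass the test, and S1pr1 lay below its floor of a mean of 5 ppm. Thus 4 of the 6 tested members were called (limma, Benjamini-Hochberg adjusted p under 0.05), 2 in each direction, against 24.4% of all 8475 genes tested (11% higher and 13.4% lower). The members were chosen with earlier results of these data known, so counts of called members here and below may be partly set by that choice.

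Klf2 was 4.44, 8.66 and 4.14 ppm in Cblb-/- libraries D, E and F, against 15.9, 18.2 and 14.0 ppm in WT libraries A, B and C. Every Cblb-/- library lay below every WT library, with E the nearest to them. The means were 5.75 ± 2.53 ppm in Cblb-/- and 16.1 ± 2.10 ppm in WT libraries (SD, n = 3 each), and on the log2 scale Cblb-/- minus WT was -1.39 (SE 0.23, limma adjusted p = 0.00592). The difference was -1.68 without library E. It shrank to -0.73 with a pseudocount of 10, which weighs low values less.

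S1pr1, the receptor gene downstream of KLF2, did not follow it. Its level was 3.92, 3.91 and 4.75 ppm in Cblb-/- libraries and 3.23, 3.98 and 3.62 ppm in WT libraries, and the groups overlapped. With the floor lowered to 1 ppm its log2 difference was 0.17 (SE 0.09, limma adjusted p = 0.217), where 24.1% of 10488 genes were called.

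Tcf7 was 57.6, 60.4 and 63.2 ppm in Cblb-/- libraries and 69.0, 73.4 and 74.4 ppm in WT libraries. The groups lay apart by a small amount, and the log2 difference was -0.26 (SE 0.05; limma, adjusted p = 0.0116). The call ended without library B (limma adjusted p = 0.0552) or C (limma adjusted p = 0.0595). Lef1, its relative, was 108.7, 109.9 and 101.8 ppm in Cblb-/- libraries and 112.3, 112.0 and 112.3 ppm in WT libraries. It did not pass, at -0.07 on the log2 scale (SE 0.04, limma adjusted p = 0.244).

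Satb1 was 301, 184 and 305 ppm in Cblb-/- libraries and 129, 126 and 133 ppm in WT libraries. D and F were alike, E stood well below them, and all 3 exceeded every WT library. The mean was 2.04-fold higher (263 ± 68.6 ppm in Cblb-/- and 129 ± 3.25 ppm in WT libraries, SD, n = 3 each), 0.99 on the log2 scale (SE 0.17, limma adjusted p = 0.00773) and 1.22 without library E (limma adjusted p = 1.08e-05). Dapl1 was 344, 218 and 216 ppm in Cblb-/- libraries and 155, 131 and 139 ppm in WT libraries. Here D stood above E and F, and again the groups did not overlap. Its mean was 1.83-fold higher, 0.84 on the log2 scale (SE 0.17, limma adjusted p = 0.0122), and the call ended without library C (limma adjusted p = 0.0546).

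Foxo1 was 57.2, 54.4 and 59.5 ppm in Cblb-/- libraries and 51.1, 51.4 and 52.9 ppm in WT libraries. The libraries did not overlap, as was true of 45.3% of all genes tested (19.7% with Cblb-/- above and 25.6% below). Its difference, 0.14 on the log2 scale (SE 0.05, limma adjusted p = 0.0671), missed the threshold in the main scaling and passed it with median-of-ratios scaling (limma adjusted p = 0.0275) and without library E (limma adjusted p = 0.0184).

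**Figure D1:**
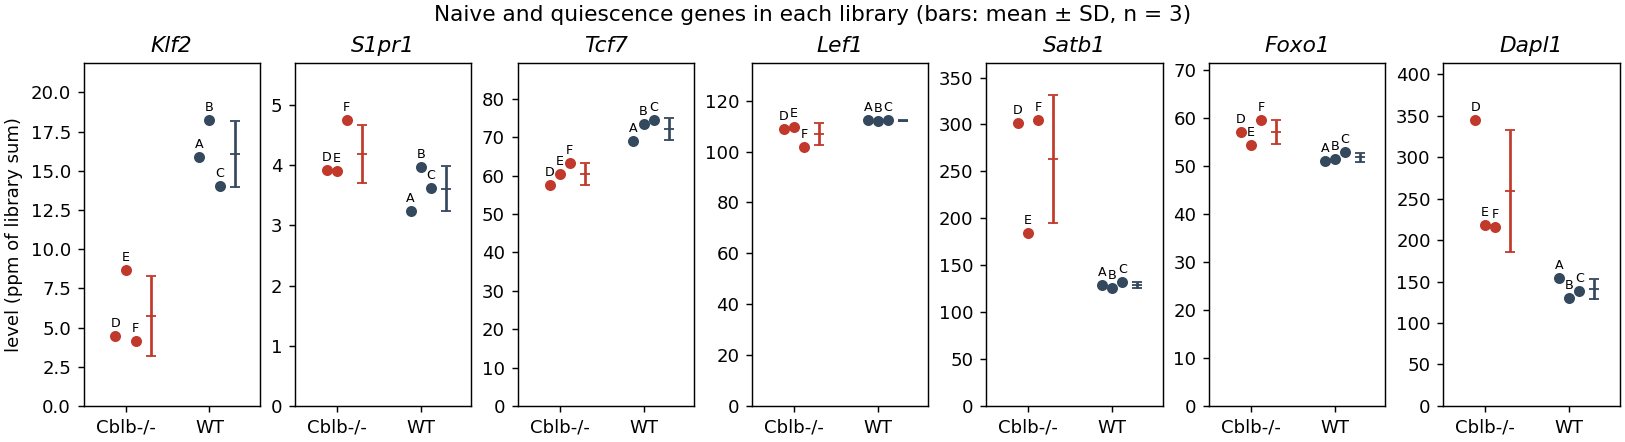
Level of each member in ppm of the library's summed corrected counts (vertical axis, from 0), by genotype; points are libraries D, E and F (Cblb-/-) and A, B and C (WT), bars the mean ± SD of 3 libraries. Klf2 and Tcf7 are lower in all 3 Cblb-/- libraries and Satb1 and Dapl1 higher, while S1pr1 overlaps.

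Counting cells in place of transcripts showed how each gene was spread. Klf2 had a corrected count of at least 1 in 9.73%, 13.7% and 9.31% of cells of D, E and F, against 22.8%, 26.9% and 22.3% of cells of A, B and C. In the cells that held it, the mean Klf2 count was 1.74, 2.40 and 1.70 in D, E and F, against 2.66, 2.58 and 2.40 in A, B and C. The share of cells thus lay well apart between genotypes, while the count per positive cell in E came up to that in C. Cells with a Klf2 count of at least 5 made up 0.958% ± 0.699 of Cblb-/- and 3.36% ± 0.564 of WT libraries.

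For Satb1 and Dapl1 many more cells held high counts in Cblb-/- libraries. Satb1 reached 10 in 53.9%, 25.6% and 55.7% of cells of D, E and F, against 13.5%, 11.9% and 13.7% of cells of A, B and C. Dapl1 reached 10 in 51.3%, 33.4% and 32.1% of cells of D, E and F, against 21.8%, 19.2% and 19.4% of cells of A, B and C. The median cell of a library held 10, 4 and 4 Dapl1 counts in D, E and F and 1 in each WT library. In contrast, the 5% of cells with the most Klf2 held 72.8% ± 0.713 of all Klf2 counts in Cblb-/- and 56.7% ± 3.12 in WT libraries.

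At a count of at least 1, shares in Cblb-/- and WT libraries were 82.8% ± 1.14 and 87.1% ± 0.886 for Tcf7, 95.5% ± 0.455 and 96.6% ± 0.339 for Lef1, and 97.9% ± 1.44 and 92.2% ± 0.24 for Satb1. They were 81.4% ± 1.87 and 78.0% ± 1.02 for Foxo1, 80.6% ± 5.16 and 61.7% ± 0.763 for Dapl1, and 13.1% ± 1.35 and 11.3% ± 0.986 for S1pr1 (SD, n = 3 each). None of the 7 members overlapped between genotypes, against 36.7% of all tested genes without overlap (17.8% higher and 18.9% lower); an exact two-sided permutation test of 3 against 3 libraries cannot go below p = 0.1. For S1pr1 the group means differed by 1.82 percentage points, but the lowest Cblb-/- library (E, 12.27%) barely exceeded the highest WT library (B, 12.21%). At a count of at least 2 its means differed by 0.44 points, and all members but S1pr1 stayed apart. No share over all genes is given for that count, so staying apart there is not read as a result about the members.

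Deposited cluster 6, with 24 cells, offers a background, since its cells carried mast cell and basophil markers (a mean Cpa3 count of 23.3, against 0.0004 in other cells). There, Klf2 reached 1 in 1 of 18 Cblb-/- cells and in 0 of 6 WT cells, for which the exact Clopper-Pearson 95% upper bounds are 27.3% and 45.9%. Median depths of these cells were 24759 and 27389 UMIs. The same cells held Satb1 in 14 of 18 and 4 of 6, Lef1 in 13 of 18 and 4 of 6, and Dapl1 in 13 of 18 and 3 of 6. They held Tcf7 in 5 of 18 and 3 of 6, and Foxo1 in 7 of 18 and 2 of 6. These cells are few and of lower depth. The shares of all 7 members at a count of at least 1 are therefore not read as numbers of expressing cells. Intervals cover counting error only.

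Next, the members were compared within the authors' deposited clusters, of which clusters 0 to 5 had at least 50 cells in every library. Cluster 0 held 46.7% to 55.1% of Cblb-/- and 31.4% to 31.96% of WT cells, cluster 1 held 17.5% to 31.1% and 43.1% to 46.1%, and cluster 2 held 10.1% to 18.0% and 3.86% to 5.87%. With such unequal makeup, sums over all cells mix cluster shares with levels, and fewer cells of a type cannot be told apart from less RNA per cell in them. Levels by cluster are a description with no test, since the clusters were built from these genes.

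Klf2 was highest in cluster 1, at 13.0 ± 4.84 ppm in Cblb-/- and 24.4 ± 2.41 ppm in WT libraries, and next in cluster 5, at 5.42 ± 5.33 and 18.8 ± 4.76 ppm. In WT libraries clusters 1 and 5 overlapped, and both lay apart from cluster 0 (9.44 ± 1.58 ppm). In Cblb-/- libraries all neighbours in the order of clusters 1, 5, 0, 2, 3 and 4 overlapped. Tcf7 was likewise highest in cluster 1 (71.1 ± 4.91 ppm in Cblb-/- and 75.8 ± 2.68 ppm in WT libraries), and it was lowest in cluster 4 (45.8 ± 2.23 and 55.4 ± 6.89 ppm). Klf2 was lowest in cluster 4 in Cblb-/- libraries (1.48 ± 0.72 ppm) and in cluster 3 in WT libraries (5.001 ± 1.72 ppm).

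Dapl1 ran the other way: it was highest in cluster 4, at 383 ± 66.8 ppm in Cblb-/- and 325 ± 15.7 ppm in WT libraries, then in cluster 0, at 339 ± 89 and 250 ± 28 ppm. Its lowest levels were in cluster 1 in Cblb-/- libraries (121 ± 42.4 ppm) and in cluster 2 in WT libraries (51.5 ± 2.82 ppm). Satb1 was highest in cluster 0 in both genotypes, at 292 ± 73.4 ppm in Cblb-/- and 170 ± 6.96 ppm in WT libraries. In WT libraries Satb1 in cluster 0 lay apart from cluster 4, and in Cblb-/- libraries no neighbouring clusters did.

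Lef1 was highest in cluster 2, at 124 ± 7.98 ppm in Cblb-/- and 128 ± 3.19 ppm in WT libraries, and lowest in cluster 4, at 77.7 ± 4.14 and 86.7 ± 3.28 ppm. Foxo1 had its lowest level in cluster 3, at 37.9 ± 2.79 and 33.7 ± 1.16 ppm, and its highest in cluster 1, at 62.6 ± 3.70 and 55.5 ± 1.97 ppm. S1pr1 was likewise lowest in cluster 3, at 1.83 ± 1.06 ppm in Cblb-/- and 1.59 ± 0.43 ppm in WT libraries.

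**Figure D2:**
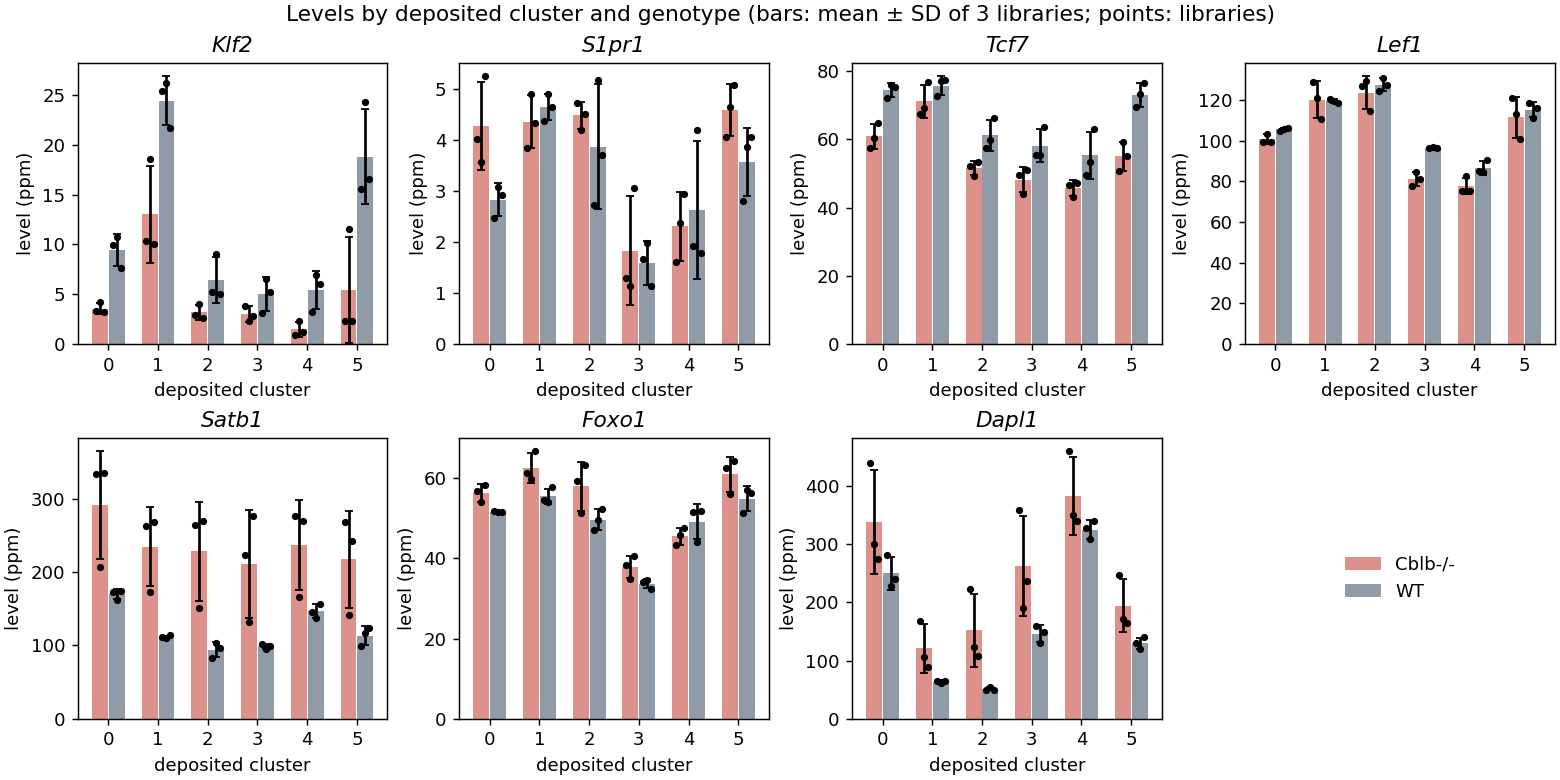
Level of each member in ppm (vertical axis) in deposited clusters 0 to 5 (horizontal axis), Cblb-/- left and WT right in each pair; bars are means of 3 libraries with SD, points the libraries. Klf2 and Tcf7 peak in cluster 1 and Dapl1 in cluster 4, and the Cblb-/- bars of Satb1 exceed the WT bars in every cluster shown.

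Within clusters, 33 pairs of a member and a cluster were tested and 17 called, 10 higher and 7 lower in Cblb-/- libraries. Over all genes 21.8% were called in cluster 0 (9.06% higher and 12.8% lower), 18.8% in cluster 1 (9.22% and 9.62%) and 20.1% in cluster 2 (8.39% and 11.7%). The shares were 8.39% in cluster 3 (4.54% and 3.85%), 12.8% in cluster 4 (5.33% and 7.47%) and 9.58% in cluster 5 (4.9% and 4.68%). Satb1 rose in all 6 clusters, with log2 differences of 0.65 in cluster 4 to 1.23 in cluster 2 (limma adjusted p = 0.00138 to 0.0173). In cluster 2 it was 264, 151 and 270 ppm in D, E and F, against 83.1, 103 and 95.9 ppm in A, B and C.

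Klf2 passed the floor in clusters 0, 1 and 5 and fell in each, by 1.19, 0.91 and 1.90 on the log2 scale (limma adjusted p = 0.00173, 0.014 and 0.0176). The floor is a mean over all 6 libraries, and in cluster 0 every Cblb-/- library lay below 5 ppm. Klf2 thus entered the cluster 0 test only through WT libraries, and in cluster 5 libraries D and F also lay below 5 ppm. That it fell in every tested cluster is therefore partly set by the filter. In cluster 0 it was 3.30, 4.20 and 3.19 ppm in D, E and F and 9.95, 10.7 and 7.66 ppm in A, B and C. In cluster 5 it was 2.36, 11.6 and 2.32 ppm in D, E and F, against 15.5, 24.3 and 16.6 ppm in A, B and C, so library E again lay between the others, and without it the difference was -2.54 (limma adjusted p = 7.86e-05). In cluster 4, where it was untested, Klf2 was 0.93, 2.30 and 1.21 ppm in D, E and F, below the 3.27, 6.98 and 6.03 ppm of A, B and C. Clusters 2 and 3 were untested as well: in cluster 2 every Cblb-/- library lay below every WT library, and in cluster 3 the groups overlapped.

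Dapl1 rose in clusters 1, 2, 3 and 5, by 0.86, 1.47, 0.79 and 0.55 on the log2 scale (limma adjusted p = 0.000882 to 0.0278). It did not pass in cluster 0 (log2 difference 0.41, limma adjusted p = 0.103) or cluster 4 (0.22, limma adjusted p = 0.141), the clusters where its level was highest. Both outcomes depended on the cells or libraries used: cluster 4 was at 0.44 in cells within 20% of the median raw depth (limma adjusted p = 0.00645), and cluster 0 at 0.55 without library F (limma adjusted p = 0.0495). In cluster 2 it was 224, 124 and 109 ppm in D, E and F and 50.1, 54.7 and 49.6 ppm in A, B and C, a 2.95-fold difference of the means. Tcf7 fell in clusters 0 (-0.29), 2 (-0.24) and 5 (-0.40), and Lef1 fell in cluster 3 (-0.25) (limma adjusted p = 0.0101 to 0.0364). Foxo1 was called in none of the 6 clusters, with log2 differences of -0.10 to 0.22 and limma p before adjustment of 0.029, 0.0134 and 0.0254 in clusters 0, 1 and 2. Without library E it was called in these 3, at 0.16, 0.20 and 0.30 (limma adjusted p = 0.0322, 0.0322 and 0.0153), and near the median depth in cluster 0, at 0.17 (limma adjusted p = 0.0433). The -0.10, in cluster 4, was 0.01 near the median depth.

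Of the 17 calls, 5 held whichever library was left out: Klf2 in cluster 0, Satb1 in clusters 1, 2 and 4, and Dapl1 in cluster 2. Among them, Klf2 in cluster 0 had passed the floor only through WT libraries. Without WT library A, B or C, 8, 6 and 7 pairs were called. In cells within 20% of the median raw depth, 6 of the 17 calls were lost: Klf2, Tcf7 and Dapl1 in cluster 5, Lef1 and Dapl1 in cluster 3, and Tcf7 in cluster 2. There 3 were gained, Dapl1 in cluster 4, Foxo1 in cluster 0 and Tcf7 in cluster 4 (-0.35, limma adjusted p = 0.0469), which made 14.

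Whether the genotype difference itself varied between clusters was tested over clusters 0 to 5 with the library as a block. It did for 4 of 6 members, against 11.1% of 8488 genes: Dapl1 (limma F test, adjusted p = 2.11e-07), Satb1 (adjusted p = 0.000792, limma), Lef1 (adjusted p = 0.0443, limma) and Foxo1 (adjusted p = 0.0476, limma). For Klf2 the test gave an adjusted p of 0.0707 and for Tcf7 of 0.104 (limma), which does not show that their differences were alike across clusters. Lef1 lost its call without A, B, C, D or E, and Foxo1 without A, C, D or F. Without library E, Klf2 (adjusted p = 1.84e-05, limma) and Tcf7 (adjusted p = 0.0174, limma) passed as well, and with a pseudocount of 10 so did Klf2 (adjusted p = 0.0131, limma).

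With every library given the same cluster makeup, Klf2 (log2 difference -1.02, limma adjusted p = 0.00743), Tcf7 (-0.21, limma adjusted p = 0.0236) and Satb1 (0.88, limma adjusted p = 0.00951) stayed past the threshold, where 23.4% of all genes did. Dapl1 was at 0.54 and just missed it (limma adjusted p = 0.0504).

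**Figure D3:**
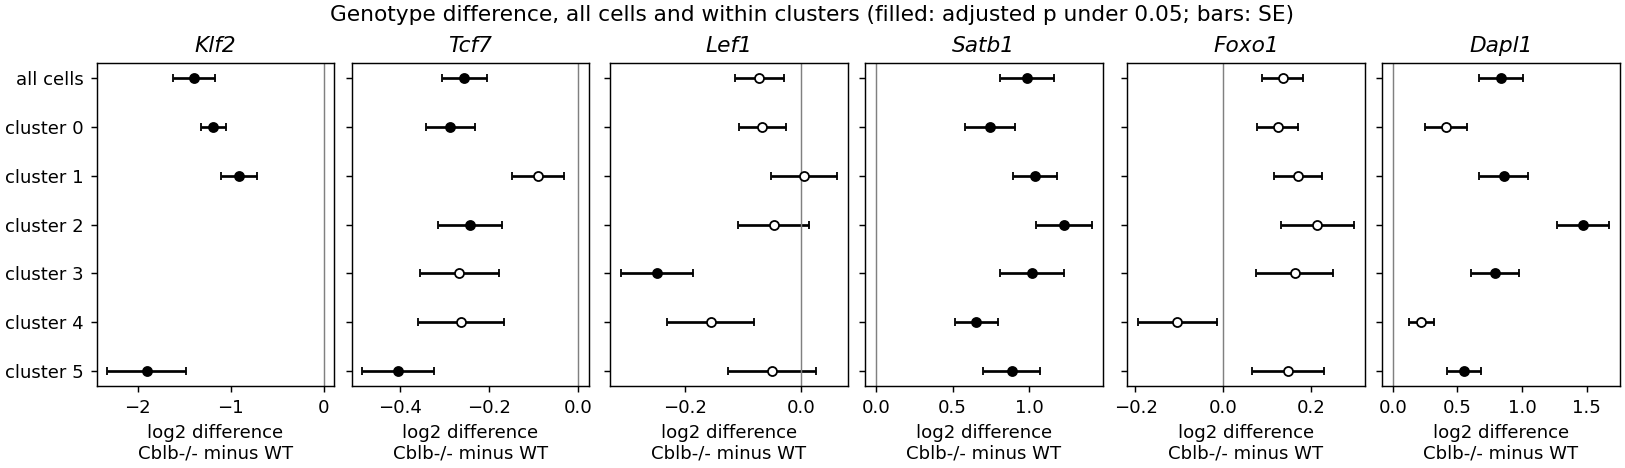
Log2 difference, Cblb-/- minus WT (horizontal axis), over all cells and within clusters 0 to 5 (rows), with SE bars; filled points have a limma adjusted p under 0.05, and a row with no point was under the 5 ppm floor. Satb1 is filled in every row, Klf2 in every row it has, and Foxo1 in none.

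The members were then set against Il9, the cytokine that names these cells, by comparing cells with an Il9 count of at least 10 with cells at 0 inside each library (448 to 1426 and 709 to 2515 cells a library). All 6 tested members differed, against 61.7% of 8519 genes (25.7% higher and 36% lower). Klf2, Tcf7, Satb1 and Dapl1 were lower in the Il9-high cells of all 6 libraries, whereas Lef1 was higher in all 6 and Foxo1 in 5.

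Dapl1 differed most. It was 236, 136 and 129 ppm in Il9-high cells of D, E and F, against 415, 265 and 264 ppm in their Il9-zero cells, and in A, B and C 63.6, 55.3 and 56.7 ppm against 198, 155 and 175 ppm. Its mean log2 difference was -1.25 (SE 0.02, limma adjusted p = 3.32e-15). Klf2 followed with -0.79 (SE 0.08, limma adjusted p = 2.74e-07), at 3.25, 3.81 and 2.53 ppm in Il9-high against 3.82, 8.34 and 3.52 ppm in Il9-zero cells of D, E and F. In WT libraries A, B and C it was 6.77, 8.47 and 7.08 ppm against 17.3, 19.0 and 14.1 ppm.

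Satb1 was lower as well, at -0.50 (SE 0.03, limma adjusted p = 9.63e-10) and Tcf7 less so (-0.17, SE 0.02, limma adjusted p = 4.2e-06). Lef1 was 129, 124 and 115 ppm in Il9-high against 94.0, 98.3 and 94.2 ppm in Il9-zero cells of D, E and F, and 122, 126 and 126 ppm against 106, 106 and 107 ppm in A, B and C. Its log2 difference was 0.29 (SE 0.02, limma adjusted p = 4.22e-09). At this Il9 count Lef1 and its relative Tcf7 thus went in opposite directions. Foxo1 was higher by 0.09 (SE 0.03, limma adjusted p = 0.00801) and lost its call without library C or F.

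The Il9 differences of 4 members varied with genotype, against 10.8% of genes. For Klf2, Satb1 and Dapl1 the drop was smaller in Cblb-/- than in WT libraries: -0.50 and -1.07 for Klf2 (adjusted p of the difference 0.0263, limma), -0.33 and -0.68 for Satb1 (0.00224), and -0.93 and -1.57 for Dapl1 (5.61e-06). For Lef1 the rise was larger, 0.36 in Cblb-/- and 0.23 in WT libraries (adjusted p of the difference 0.0491, limma). Klf2 lay below the level used as the floor in Il9-high and Il9-zero cells of D (3.25 and 3.82 ppm) and F (2.53 and 3.52 ppm). The log2 scale understates changes at such levels. In E the values were 3.81 and 8.34 ppm, a wider gap than in D or F. On the log2 scale this drop in E also exceeded that in WT library C (7.08 and 14.1 ppm). The part of low levels in the Klf2 result was not tested. Median raw depth was 42918 UMIs in Il9-high and 38702 in Il9-zero WT cells, but 39333 and 39323 in Cblb-/- cells. The part of this depth gap in the variation with genotype was not tested.

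Cluster makeup moved with this split: cluster 2 held 58.7% of Il9-high Cblb-/- cells, 39.1% of Il9-high WT cells and no Il9-zero cell. Only cluster 1 held at least 20 cells of both classes in every library. There Klf2 differed by -1.63 (limma adjusted p = 3.33e-08), Tcf7 by -0.30, Satb1 by -0.38 and Lef1 by 0.13, all still past the threshold. Dapl1 did not differ beyond its spread in cluster 1 (0.07, limma adjusted p = 0.381), and neither did Foxo1 (0.04, limma adjusted p = 0.534). With an Il9 count of at least 1 as the upper class, Klf2 had a difference of 0.01 (limma adjusted p = 0.744) and Tcf7 of -0.02 (limma adjusted p = 0.214), so both calls ended. Dapl1 and Satb1 were smaller there, at -0.59 and -0.25, with Lef1 at 0.19 and Foxo1 at 0.07, and these 4 kept their calls.

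A second split asked which genes went with Klf2 in the same library, comparing cells with a Klf2 count of at least 1 (333 to 1158 a library) with cells at 0. Tcf7, Lef1, Satb1 and Foxo1 were higher in the Klf2-positive cells of all 6 libraries, and Dapl1 was lower in all 6, 5 of 5 tested members against 51% of 8496 genes (24.8% higher and 26.3% lower). Tcf7 was 66.6, 80.6 and 86.0 ppm in Klf2-positive against 56.6, 57.2 and 60.9 ppm in Klf2-zero cells of D, E and F. In A, B and C it was 87.8, 91.1 and 92.4 ppm against 63.5, 66.8 and 69.3 ppm.

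The mean log2 differences were 0.42 for Tcf7 (SE 0.03, limma adjusted p = 2.51e-09), 0.28 for Foxo1 (SE 0.02, limma adjusted p = 1.35e-08), 0.18 for Lef1 (SE 0.02, limma adjusted p = 1.74e-06) and 0.14 for Satb1 (SE 0.01, limma adjusted p = 1.41e-07). Dapl1 was at -0.34 (SE 0.02, limma adjusted p = 1.99e-10). Within clusters 0, 1 and 2 at equal makeup, the 5 members kept their direction and passed, where 43.1% of genes did (21.1% higher and 22% lower), with Dapl1 down to -0.09. Satb1 thus went with Klf2 from cell to cell while the 2 genes moved oppositely with genotype. The Satb1 difference was 0.20 in Cblb-/- and 0.08 in WT libraries (adjusted p of the difference 0.021, limma), and that of Dapl1 -0.24 and -0.44 (0.00506), where 1.68% of genes differed.

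**Figure D4:**
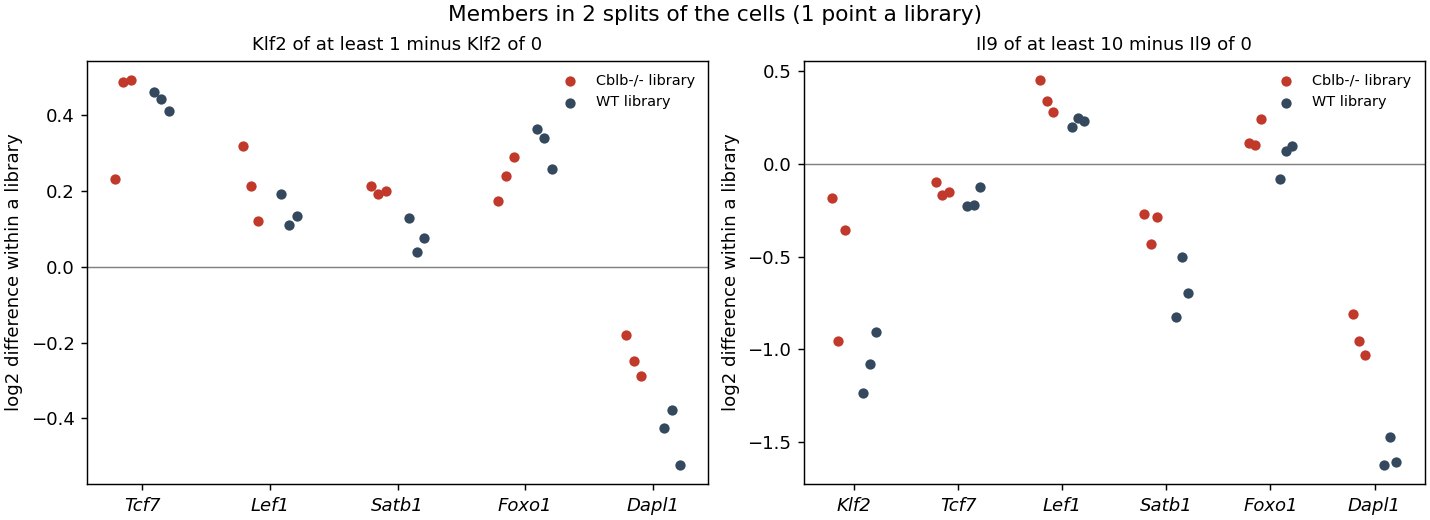
Log2 difference inside each library (vertical axis; 1 point a library, Cblb-/- left and WT right for each gene) between cells with a Klf2 count of at least 1 and of 0 (left panel) and between cells with an Il9 count of at least 10 and of 0 (right panel). Dapl1 is below 0 in every library in both panels, and Lef1 above 0 in every library in both.

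Other genes showed what else marked the Klf2-positive cells. Among the called genes with the largest rises were Myo6 (1.95), Gsta4 (1.27), Mxd1 (1.04), Gpr146 (0.999) and Pdlim4 (0.92), as log2 differences. Myo6 encodes a myosin motor and Mxd1 a MYC antagonist. Myo6 was 58.1, 25.9 and 16.5 ppm in Klf2-positive against 6.95, 4.23 and 3.57 ppm in Klf2-zero cells of D, E and F. In A, B and C it was 30.00, 29.6 and 23.3 ppm against 8.94, 10.6 and 7.80 ppm, so it was higher in all 6 libraries. Gsta4 was 5.16 to 12.7 ppm in Klf2-positive cells of the libraries. In Klf2-zero cells it was 1.54 to 3.64 ppm, below the level used as the floor. Mxd1 (3.81 to 5.33 ppm) and Pdlim4 (2.65 to 5.25 ppm) also lay mostly below that level in Klf2-zero cells. Gsta4, Mxd1 and Pdlim4 thus passed the floor only through Klf2-positive cells, and their rises are partly set by the filter.

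The 6 largest falls were those of Il1a (-1.17), Xcl1 (-1.08), Ccl20 (-1.04), Ccl3 (-1.02), Edn1 (-0.94) and Inhba (-0.89), which encode cytokines, chemokines, a vasoactive peptide and an activin subunit. These genes all passed (limma adjusted p = 6e-12 to 1.98e-05). Il1a (0.74 to 4.89 ppm) and Inhba (0.89 to 3.31 ppm) lay below 5 ppm in both classes of every WT library. Xcl1 was 2.26 to 5.72 ppm in Klf2-positive cells and passed the floor through Klf2-zero cells, so its fall is partly set by the filter. At equal makeup of clusters 0, 1 and 2, Ccl20 was at -0.42, Il1a at -1.11, Edn1 at -0.75 and Inhba at -0.88, while Ccl3 and Xcl1 had no value. Among the rises, Myo6 was at 1.77, Mxd1 at 0.91, Gpr146 at 0.89 and Pdlim4 at 0.81 there, while Gsta4 had no value. In cells near the median raw depth, Gsta4, Pdlim4 and Xcl1 had no value.

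The lists were counted in the same split, beside the 24.8% higher and 26.3% lower over all genes. Of 13 tested FOXO target genes, 12 were higher and 1 lower in Klf2-positive cells, with a median of 0.47 against -0.001 over all genes. Of 13 tested genes of the naive programme, 9 were higher and 2 lower. Homing genes had 7 higher and 1 lower of 9, quiescence genes 12 and 5 of 23, PI3K, AKT and mTORC2 genes 9 and 0 of 15, and ERK5 and MEF2 genes 2 and 1 of 10. TCF and LEF partners had 4 higher and 2 lower of 10, S1P signalling 3 and 3 of 10, and chromatin partners of SATB1 3 and 5 of 8. Markers of T cells and of other cells moved too: 5 of 7 Treg markers were higher and none lower, 6 of 9 T cell markers higher and 2 lower, and 2 of 2 CD8 T and NK markers and 1 of 1 B cell marker higher. Their part in these differences was not tested.

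Cells holding both of 2 members were counted for the 21 pairs, as a description with no test. The odds ratio was above 1 in all 6 libraries for 13 pairs and below 1 in all 6 for 2, Klf2 with Dapl1 and Tcf7 with Dapl1. The share for pairs of other genes was not computed, so these counts are not read as a result about the members. Within clusters neither stayed below in all 6: the log2 odds ratio of Klf2 with Dapl1 had a median of 0.05 and was above 0 in 4 of 6 libraries, and that of Tcf7 with Dapl1 (-0.02) in 2 of 6. The highest medians were those of Klf2 with S1pr1, a log2 odds ratio of 1.06 (0.25 to 1.26 over libraries) from 860 cells holding both, and of Lef1 with Satb1 (1.05). Nearly all cells held Lef1 and Satb1, so the latter value rests on the 5 to 25 cells a library with neither. At counts of at least 2 the value of Klf2 with S1pr1 was 2.54 (1.89 to 2.92), from 141 cells, and that of Lef1 with Satb1 was 0.30 (0.22 to 0.97). S1pr1 was also above 0 in all 6 libraries with Tcf7, Lef1, Satb1 and Foxo1 (medians 0.37 to 0.70 at a count of at least 1). At counts of at least 2, S1pr1 with Satb1 was above 0 in 4 of 6 libraries, and with Tcf7, Lef1 and Foxo1 in all 6. By these counts S1pr1 and Klf2 shared cells, while the S1pr1 sum did not move with Klf2 between genotypes. Without the odds of other gene pairs, this sharing is a description and is not read as particular to S1pr1 and Klf2. Rank correlations over cells were weak for every pair, at most 0.20, so in such sparse counts they are no finding.

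**Figure D5:**
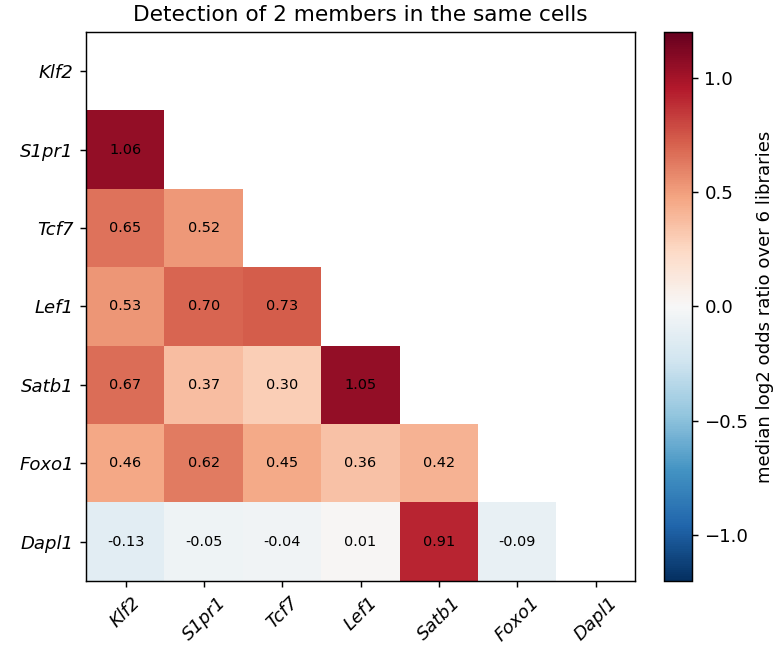
Median over 6 libraries of the log2 odds ratio that 2 members both reach a count of at least 1 in the same cell (colour scale and numbers; rows and columns are members). The Klf2 and S1pr1 cell is 1.06 and that of Satb1 and Dapl1 0.91, while Dapl1 with the other 5 lies between -0.13 and 0.01.

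Over the 36 cluster-by-library sums of clusters 0 to 5, the members paired off. Klf2 and Tcf7 went together (Pearson r 0.84), Satb1 with Dapl1 (0.61), and Lef1 against Dapl1 (-0.72). These are descriptions, since the points share libraries. The genes most like each member over the same 36 points were Tmcc1, Tgfbr1 and Maz for Klf2 (r 0.83 to 0.87), Ablim1, Frmd8 and Slain1 for Tcf7 (0.77 to 0.83), and Aes, Smap2 and Grk2 for Lef1 (0.91 to 0.92). They were Sigirr, Sema4f and Npc2 for Satb1 (0.93 to 0.96), Pbx2, Ttk and Arhgap45 for Foxo1 (0.86 to 0.88) and Kcnk10, Hvcn1 and Jaml for Dapl1 (0.92 to 0.94).

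The wider pathway was read from lists of genes around the members, each count standing beside the 11% higher and 13.4% lower over all genes, whose median log2 difference was -0.01. These lists were also chosen with earlier results of these data known, so their counts may be partly set by that choice. Of 8 tested homing and naive surface genes, 2 rose and 1 fell. Ccr7, the receptor that leads T cells into lymph nodes, was 137, 127 and 142 ppm in D, E and F, against 91.7, 100.7 and 94.5 ppm in A, B and C (log2 difference 0.50, limma adjusted p = 0.00169). Il7r, the receptor for the survival cytokine IL-7, was 10.5, 7.17 and 9.25 ppm against 4.77, 4.28 and 4.96 ppm (0.80, limma adjusted p = 0.00522). Every WT library lay below 5 ppm, so Il7r entered the test only through Cblb-/- libraries. Its rise is therefore partly set by the filter. Cd69, which holds S1PR1 off the cell surface, fell by 0.54 on the log2 scale (limma adjusted p = 0.0153).

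The naive programme list moved mostly down. Of its 13 tested genes 1 rose and 7 fell, with a median log2 difference of -0.32. Nsg2 was 3.14, 4.18 and 3.12 ppm in D, E and F and 7.62, 10.1 and 8.55 ppm in A, B and C (log2 difference -1.12, limma adjusted p = 0.00161). Every Cblb-/- library lay below 5 ppm, so Nsg2 entered the test only through WT libraries. Its fall is therefore partly set by the filter. Trib2, a pseudokinase gene, was 4.84, 10.5 and 7.92 ppm against 19.0, 21.3 and 20.0 ppm (-1.32, limma adjusted p = 0.0057). Txk, which encodes a TEC family kinase, fell by 0.53 and Cmah, which makes a form of sialic acid, by 0.51 (limma adjusted p = 0.00202 and 0.00258).

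Quiescence genes other than the members showed no common direction. Of 23 tested, 4 rose and 2 fell, with a median of 0.01. Klf6 (0.63) and Klf13 (0.37), relatives of Klf2, rose, as did the antiproliferative gene Tob2 (0.23), while Btg1 (-0.30), which slows cell division, fell (limma adjusted p = 0.00719 to 0.0332). FOXO targets split likewise. Of 13 tested, which include Klf2 and genes of other lists, 3 rose and 4 fell: Irs2 (1.14), Il7r and Ccr7 rose, and Pink1 (-0.69), a mitochondrial quality-control kinase gene, fell (limma adjusted p = 0.000959 to 0.00522). Il7r, as said above, had passed the floor only through Cblb-/- libraries. Irs2, an adaptor of insulin and IL-4 signalling, was 14.9, 10.2 and 14.1 ppm in D, E and F and 5.27, 5.04 and 5.62 ppm in A, B and C.

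Upstream of FOXO1, 3 of 15 tested PI3K, AKT and mTORC2 genes fell and none rose (Phlpp2, a phosphatase gene acting on AKT, came nearest at 0.29, limma adjusted p = 0.0535). Inpp4b, a lipid phosphatase gene, was 58.9, 63.6 and 49.8 ppm in D, E and F, against 76.4, 78.6 and 76.5 ppm in A, B and C, and fell by 0.43 on the log2 scale (limma adjusted p = 0.0102). The catalytic subunit gene Pik3cd fell by 0.16 (limma adjusted p = 0.0482). Among 10 ERK5 and MEF2 genes, known upstream of Klf2, 2 rose (Mapk7, the ERK5 gene itself, 0.35, and Mef2a, 0.15) and 1 fell (Hdac7, -0.17), with limma adjusted p = 0.0196 to 0.0492.

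Partners of the other members changed little in number. Of 10 TCF and LEF partners 2 fell, Tcf12 (-0.24) and the corepressor Tle4 (-0.41). Of 10 genes of S1P signalling 2 rose, Plpp1 (0.67) and Gna13 (0.21), and 1 fell, Cd69 again. Plpp1 lay below 5 ppm in every WT library, so it passed the floor only through Cblb-/- libraries. Of 8 chromatin partners of SATB1, Runx3 (0.70) rose and Hdac1 (-0.67) fell. Limma adjusted p for these 6 genes lay between 0.00484 and 0.0394.

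Markers of other cells were read beside these results. Of 9 T cell markers 1 rose and 3 fell, with Cd3e at -0.30, Trac at -0.24, Cd4 at -0.20 and Cd5 at 0.38. Of 6 CD8 T and NK markers in the table, 2 were tested and both rose (Cd8b1 0.64 and Nkg7 0.35), and the list summed to 31.2 to 32.8 ppm in Cblb-/- and 21.3 to 25.0 ppm in WT libraries. Treg markers summed to 822 to 1105 ppm in Cblb-/- and 676 to 727 ppm in WT libraries, with Il2ra (0.54), Ctla4 (0.64) and Tnfrsf18 (0.47) among 3 that rose and Foxp3 (-1.13) among 2 that fell. The part of these cells in the members' differences was not tested. B cell markers summed to 26.6 to 32.9 ppm in Cblb-/- and 26.7 to 28.1 ppm in WT libraries, myeloid markers to 1.94 to 3.57 and 1.52 to 2.37 ppm, mast and basophil markers to 1.02 to 5.45 and 1.04 to 6.38 ppm and erythroid markers to 0.12 to 0.66 and 0.13 to 0.22 ppm. None of the listed markers in the table was at 0 in every library.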

How the data were processed

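Single-cell RNA-seq was made from 3 Cblb-/- and 3 WT Th9 cultures. Per the submitters' processing notes, Cell Ranger 3.0.2, Seurat 3.0.0 and mm10 were used, with settings not stated there. The gene values are scores: counts corrected with sctransform, which the authors ran to even out depth between cells, per the file headers, so no count model was used. The raw UMI count and the mitochondrial percent of each cell are deposited beside them, per the file headers. Cluster numbers were used as deposited. The table names each library by its index and genotype, with no replicate number.

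Corrected counts were summed per library (and cluster or class of cells) and divided by the library sum to give ppm. The test, limma 3.58.1 in R 4.3.3, ran on log2(ppm + 1) for genes averaging 5 ppm or more, with a trended prior variance, two-sided, Benjamini-Hochberg adjusted over all genes at 0.05. A fold change on this scale understates changes of low genes. Splits of cells inside libraries had the library as a block. Shares have an exact permutation test; intervals are exact Clopper-Pearson at 95%. The fits were tested on simulated data first. Named genes are the members, the up to 4 genes of each list with the smallest p, the 3 genes most like each member, and the 6 largest rises and 6 largest falls in the Klf2 split. Receptor segments and ribosomal, mitochondrial, Y-linked and unnamed genes stayed out of those last groups. The members and lists were chosen with earlier results of these data known. A few genes that this rule names are not reported here. Raw counts per gene were not analysed here, so no doublet caller was run and cells were not thinned. Alternatives changed the pseudocount, filter, scaling, cells, weights, thresholds and libraries.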

Additional observations from a re-analysis of the deposited data

Results flagged for a closer look

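These results stood out because a difference between groups itself varied with another condition, tested directly; no explanation was weighed. Over clusters 0 to 5, the genotype difference varied for Lef1 (limma F test, adjusted p = 0.0443), Satb1 (0.000792), Foxo1 (0.0476) and Dapl1 (2.11e-07). For Dapl1 the log2 difference was 1.47 in cluster 2 and 0.22 in cluster 4, and for Satb1 1.23 and 0.65 in the same clusters. Lef1 was lowest relative to WT in cluster 3 (-0.25), and Foxo1 was below 0 in cluster 4 (-0.10) and above 0 in the other 5. The Lef1 call ended without A, B, C, D or E, and that of Foxo1 without A, C, D or F. In cells near the median raw depth, the cluster 4 value of Foxo1 was 0.01.

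Between cells with an Il9 count of at least 10 and of 0, the difference varied with genotype for Klf2 (limma adjusted p = 0.0263), Lef1 (0.0491), Satb1 (0.00224) and Dapl1 (5.61e-06). Between cells with a Klf2 count of at least 1 and of 0 it did so for Satb1 (limma adjusted p = 0.021) and Dapl1 (0.00506). In the Il9 split, Klf2 lay below the level used as the floor in both classes of cells of libraries D and F. Il9-high cells were deeper than Il9-zero cells in WT (median 42918 and 38702 UMIs) but not in Cblb-/- (39333 and 39323 UMIs).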

How the results depend on the processing

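Over all cells, Klf2 and Satb1 kept their direction and their call under each alternative in which they were tested. Their log2 differences were -1.68 to -0.22 and 0.86 to 1.22. With a floor of 20 ppm Klf2 was not tested. The low end for Klf2 came from averaging logarithms over cells. Leaving out 1 library at a time, Tcf7 ranged from -0.29 to -0.22, Dapl1 from 0.62 to 0.95 and Foxo1 from 0.11 to 0.17. Dapl1 was 0.54 and missed the threshold at equal cluster makeup. Foxo1 passed it with median-of-ratios scaling (0.15), in cells within 20% of the median raw depth (0.16) and with library quality weights (0.16). Genes called higher numbered 547 with a floor of 20 ppm, 1433 with none, 1404 with weights and 396 to 1750 with 1 library left out; those called lower numbered 381 to 1396. With 1 library left out, 2 to 5 members were called over all cells, 6 to 19 pairs within clusters and 2 to 5 members between clusters. In the Il9 split, Klf2 turned to 0.014 and Tcf7 lost its call (-0.02) with a count of at least 1 as the upper class, and Dapl1 to 0.070 within cluster 1. The cause of these changes was not tested. Of 820 alternative values, 483 with 1 library left out and 226 others kept direction and call or stayed near the main value. No paired analysis was possible because the libraries carry no replicate number. Values of a few ppm, such as S1pr1 and Klf2, are limited by depth.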
